A study of Mus musculus with 10 samples.

Results

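The endothelial identity genes are 31 genes that mark the cells lining blood vessels. They were listed by symbol, and all 31 were found on the array through the RefSeq accession of their probes. They make up 31 of the 22016 genes tested and are read by 39 of 39429 probes. The 8 members with a pair of probes are Kdr, Erg, Nos3, Ptprb, Sox17, Cd34, Plvap and Ednrb. All 39 probes were well above background in the heart channel on 9 of 9 arrays, and 0 were saturated, so no member was lost to a filter on dim probes. The data are ventricle RNA of 10 male mice, 5 without treatment (controls) and 5 given aldosterone, the adrenal steroid that activates the mineralocorticoid receptor, with a labelled duration of 7 days in both groups. Strain, age, dose and route are not given in the sources used here, and the titles mark the hearts of both groups as Ctrl without saying what this stands for. The word controls is used here for the untreated hearts alone. Each heart was labelled with Cy5 and hybridised with a Cy3 reference, RNA mixed from 5 mouse tissues (kidney, liver, spleen, brain and heart), so every value is a log2 ratio of heart to reference. Scanner files cover 5 controls and 4 aldosterone hearts. Aldosterone 4 is present in the authors' deposited value table only.

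Endothelial cells form the inner lining of vessels, and in the ventricle most of them belong to the dense capillary bed that runs beside the cardiomyocytes. They are held together by junction proteins, respond to vascular endothelial growth factors (VEGF) and angiopoietins through tyrosine kinase receptors, and control vessel tone through nitric oxide. Cardiac capillaries also hand fatty acids from the blood to the muscle. In whole ventricle RNA, fewer cells of a type and less RNA per cell cannot be told apart.

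On a given array 64.3% to 70.9% of probes exceeded the scanner's limit for a clear Cy5 signal, and the median Cy5 signal was 118.5 to 146.25 units over a background of 57 to 59. Some hearts of opposite groups deviated together. Over 22016 genes, the deviation of control 3 from its group mean correlated with that of aldosterone 5 (r = 0.48) and aldosterone 3 (0.35) and ran against that of aldosterone 1 (-0.46). Control 5 did the reverse, with r = 0.32 and 0.35 against aldosterone 1 and 2 and -0.38 and -0.34 against aldosterone 3 and 5. These correlations are across genes, which are not independent, and no label names what the hearts share. All controls lay at slide positions 1 or 4, and all aldosterone hearts with a scanner file at position 2. The effect of position therefore cannot be told apart from that of the treatment.

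The endothelial genes showed no shift with aldosterone that passed the test. In limma's linear model with Benjamini-Hochberg adjustment over all genes, 0 of 31 members passed an adjusted p of 0.05, beside 0% of all genes (0 of 22016). At an unadjusted p under 0.05, 3 members were found, or 9.68%, beside 6.19% of all genes (1363). These were Cd34, Vwf and Esam, all higher in the aldosterone hearts. The differences of the members, aldosterone minus control on the log2 scale, ran from -0.21 (Aqp1) to 0.37 (Cd34), with a smallest adjusted p of 0.303. Of the members, 18 were higher and 13 lower, or 58.1% higher beside 52.3% of all genes. Their median difference was 0.04 and that of all genes 0.00. Without control 3, and likewise without aldosterone 1, the median was -0.01 and 14 members were higher.

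The authors' deposited value table, which adds aldosterone 4, gave 0 calls among the members as well. In limma's fit of the table the background was 0.168% of all genes (37, of which 33 were higher). At an unadjusted p under 0.05 there were again 3 members, here Cd34, Vwf and Aqp1, beside 8.09% of all genes (1782). Of the members, 21 were higher and 10 lower, or 67.7% higher beside 49.9% of all genes, with a median of 0.05 and a range from -0.32 to 0.34. The sign was the same in both sources for 28 members and differed for Sox17, Flt4 and Ednrb, whose differences lay between -0.02 and 0.10. Fits of the 9 and the 10 hearts share most samples and are not independent.

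**Figure D1:**
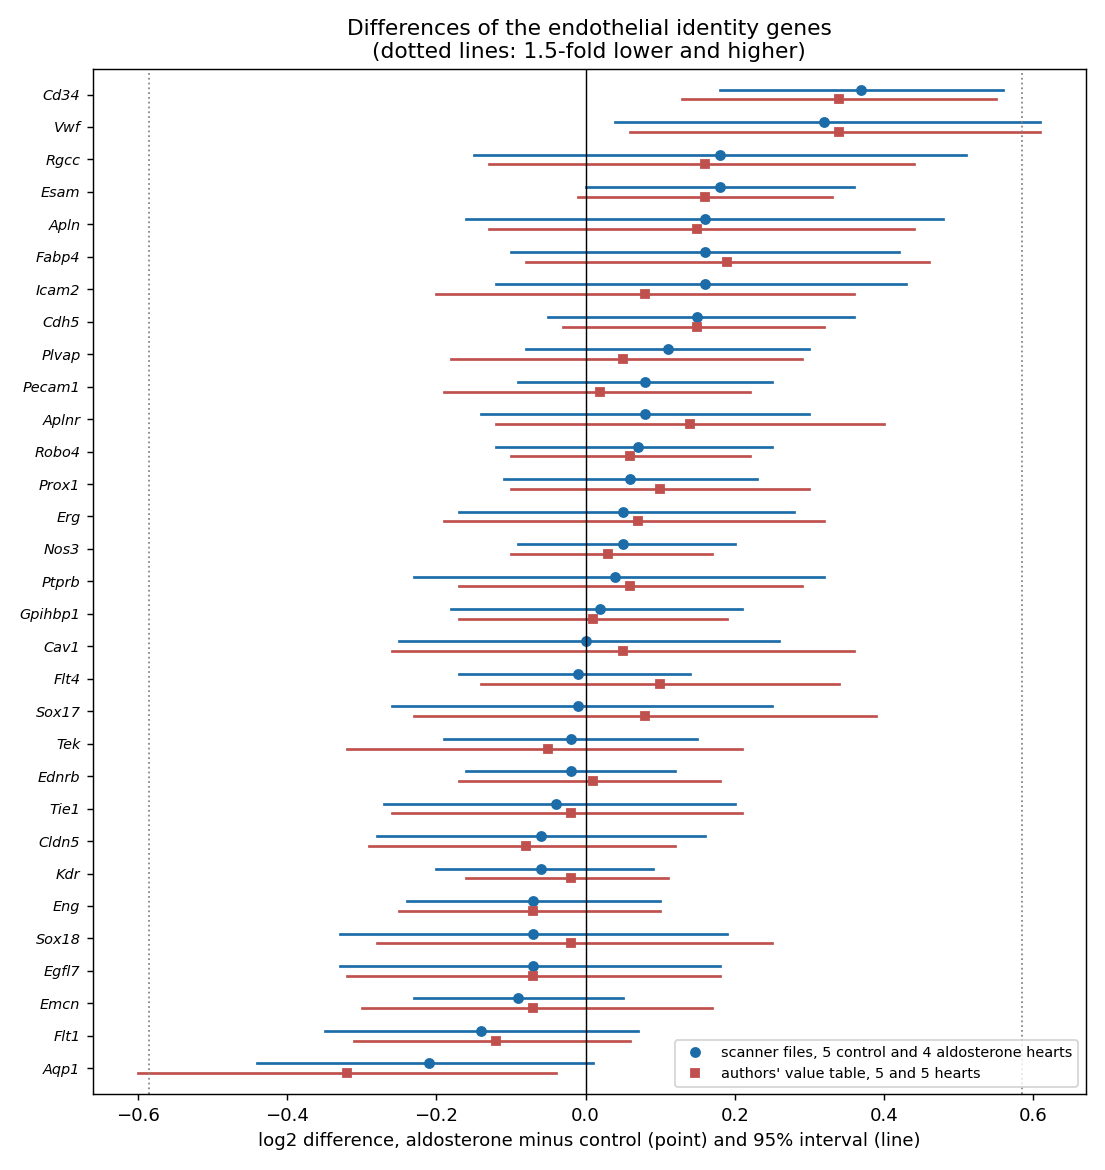
Log2 difference, aldosterone minus control, of each of the 31 members (points) with its 95% confidence interval (lines), from the scanner files of 5 control and 4 aldosterone hearts (blue) and from the deposited value table of 5 and 5 hearts (red). Dotted lines mark 1.5-fold. Cd34 and Vwf lie furthest to the right and Aqp1 furthest to the left, and in the scanner files only the interval of Vwf crosses a dotted line.

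In the scanner files the 95% confidence interval of the difference lay inside 1.5-fold in either direction (0.58 on the log2 scale) for 30 of 31 members, all but Vwf. In the value table this held for 29, all but Vwf and Aqp1. Over all members the interval bounds of the scanner files reached from -0.44 (Aqp1) to 0.61 (Vwf). The SD between hearts of one group had a median of 0.154 over the members, beside 0.118 over all genes, and was smallest for Emcn (0.0783) and largest for Rgcc (0.265). In the value table the medians were 0.169 and 0.175. The size of the ratios differed between the sources too. The control mean of Tek was 1.02 in the scanner files and 2.42 in the table. For Kdr, Vwf, Plvap and Ednrb it was smaller in size in the table. Intervals, folds and SDs from the scanner files hold for ratios with the offset used in background correction. With an offset of 16 the SE of Flt4 was 0.11 (0.07 here), that of Cd34 stayed at 0.09, and no member had a smaller SE.

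**Figure D2:**
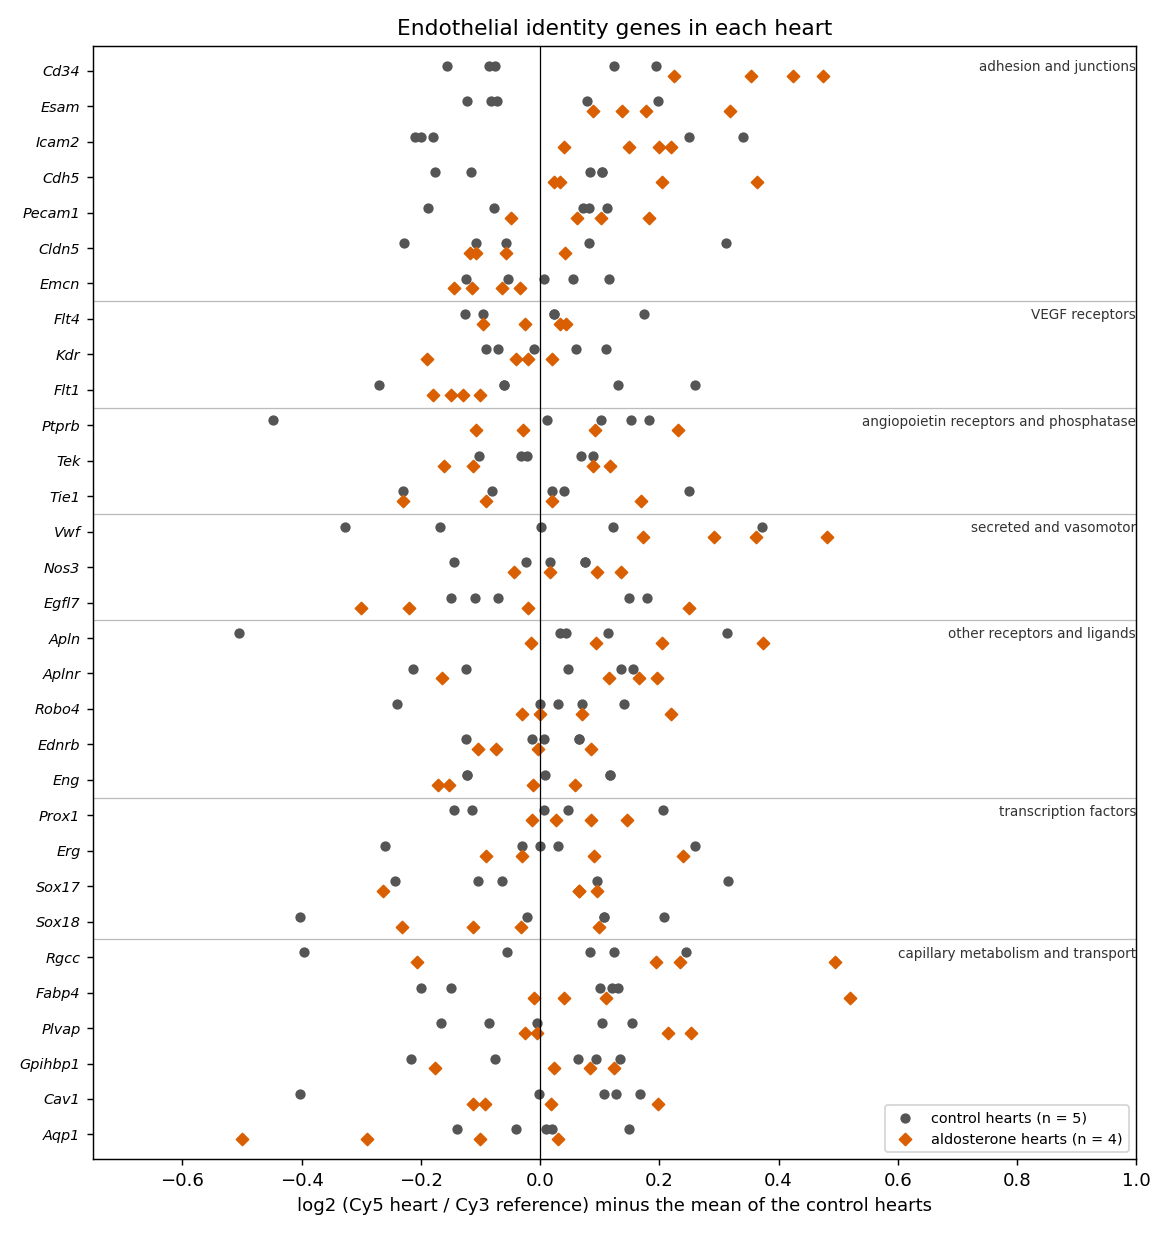
Log2 ratio of heart to reference for every member in each of 9 hearts, less the mean of the 5 controls, from the scanner files, by role. Grey circles are control hearts and orange diamonds aldosterone hearts. The groups overlap in every row but that of Cd34, where all 4 aldosterone hearts lie to the right of all 5 controls.

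Adhesion and junction proteins were the role with the highest median difference, 0.15 over 7 members, 5 of them higher, and 0 passed the test. In the value table this median was 0.08, the same as that of the transcription factors there. Per-heart values below are log2 ratios to the reference from the scanner files, in the order of controls 1 to 5 and of aldosterone hearts 1, 2, 3 and 5. Cd34 encodes a sialomucin of the vessel surface that fibroblasts and blood progenitors also carry. Its ratio was 1.35, 1.56, 1.28, 1.36 and 1.63 in the controls and 1.91, 1.66, 1.79 and 1.86 in the aldosterone hearts. All 4 aldosterone hearts lay above all 5 controls, which made Cd34 the 1 member of 31 whose groups did not overlap, beside 2.1% of all genes (462, of which 321 were higher). The difference was 0.37 (SE 0.09), a fold of 1.29 with a 95% interval of 1.13 to 1.47, at an unadjusted p of 0.00139 and an adjusted p of 0.303 in limma, so the call was not made. Within slides the differences were 0.46, 0.38, 0.43 and 0.22, and with a single heart left out the value ran from 0.33 to 0.42. Over the 24 alternatives tried its adjusted p ranged from 0.167 to 1.

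The deposited table held Cd34 at 1.48, 1.74, 1.38, 1.52 and 1.80 in the 5 controls and 2.09, 1.79, 1.92, 1.85 and 1.95 in the 5 aldosterone hearts. There control 5 lay above aldosterone 2, so the groups overlapped, and 0 of 31 members had groups apart, beside 1.91% of all genes (421). The difference was 0.34 (SE 0.09, adjusted p = 0.336 in limma). The other Cd34 probe read 0.59, 0.79, 0.55, 0.83 and 0.71 in the controls and 0.84, 0.73, 1.08 and 0.87 in the aldosterone hearts. With a difference of 0.19 (SE 0.09) and overlapping groups, it pointed the same way with a smaller size. Genes on the fibroblast list stood higher too, 10 of 10, with a median difference of 0.43, 7 at an unadjusted p under 0.05 (beside 6.19% of all genes) and 0 past the adjusted threshold. The mean ratio of that list was 0.33 to 0.99 in the controls and 0.69 to 1.23 in the aldosterone hearts, and its part in the Cd34 result was not tested.

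Promoters show which letters lie in front of 3 of the members, the one with the highest difference, the one with the lowest, and a receptor with several matches. RefSeq promoter sequences (GRCm38.p6, from 250 bases before the start to 50 after) were at hand for 18 of 31 members. Factors of the ETS family, Erg among them, bind a GGAA core and are known regulators of endothelial genes. The 6 letters CGGAAG or AGGAAG, on either strand, occurred in a window of 12 of the 18 (66.7%), beside 49.8% of the 27025 genes of the table. Some genes have several start sites and so several windows. Counted by window, the letters occurred in 13 of 24 (54.2%) for the members, beside 46.5% of 32851 windows in all. ACAAT, the core read by SOX factors, occurred in 6 of the genes (33.3%, beside 34.4%), and TATAAA in 4 (22.2%, beside 15.7%), both searched on either strand. Capitals mark the ETS letters, the sequences run 5′ to 3′ on the gene's strand, and a match is a description and not a site.
Cd34 (chr1:194938571-194938870, plus strand): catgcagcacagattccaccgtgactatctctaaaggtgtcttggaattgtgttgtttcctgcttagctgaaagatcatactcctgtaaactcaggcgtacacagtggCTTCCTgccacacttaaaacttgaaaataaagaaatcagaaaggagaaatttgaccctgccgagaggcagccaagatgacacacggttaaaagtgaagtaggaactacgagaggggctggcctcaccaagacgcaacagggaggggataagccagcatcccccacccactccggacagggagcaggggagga
Aqp1 (chr6:55336049-55336348, plus strand): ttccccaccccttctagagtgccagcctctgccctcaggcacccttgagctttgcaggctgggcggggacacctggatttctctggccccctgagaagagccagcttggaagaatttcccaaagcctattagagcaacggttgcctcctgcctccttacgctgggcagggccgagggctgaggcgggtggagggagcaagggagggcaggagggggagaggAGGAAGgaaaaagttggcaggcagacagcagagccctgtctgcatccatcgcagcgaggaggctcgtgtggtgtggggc
Tie1 (chr4:118489800-118490099, minus strand): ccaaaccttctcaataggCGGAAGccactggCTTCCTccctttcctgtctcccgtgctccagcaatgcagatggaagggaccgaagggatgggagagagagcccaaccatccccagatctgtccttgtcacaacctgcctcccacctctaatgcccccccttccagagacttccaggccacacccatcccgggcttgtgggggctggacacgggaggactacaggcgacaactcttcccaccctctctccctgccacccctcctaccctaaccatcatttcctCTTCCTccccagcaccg

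The remaining junction genes overlapped between groups. Esam, an adhesion molecule of endothelial tight junctions, read 0.68, 0.88, 0.73, 0.72 and 1.00 in the controls and 1.12, 0.98, 0.89 and 0.94 in the aldosterone hearts. The aldosterone hearts sat in the upper part of the range, with control 5 above 3 of them, at a difference of 0.18 (SE 0.08) with an unadjusted p of 0.0462 and an adjusted p of 0.801 in limma. Cdh5 encodes VE-cadherin, the adhesion protein of endothelial adherens junctions, and read 0.86, 1.14, 0.92, 1.14 and 1.12 in the controls and 1.40, 1.24, 1.07 and 1.06 in the aldosterone hearts. Aldosterone 1 and 2 lay above every control. Its difference of 0.15 (SE 0.09) became 0.09 without aldosterone 1 and 0.14 without aldosterone 2. Within slides 1 and 2 it was 0.40 and 0.32, and within slides 3 and 4 -0.07 and -0.06. Pecam1, the platelet and endothelial adhesion molecule CD31, read 0.79, 0.95, 0.68, 0.94 and 0.98 in the controls and 0.93, 1.05, 0.97 and 0.82 in the aldosterone hearts, a difference of 0.08 (SE 0.08).

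Cldn5, the main claudin of endothelial tight junctions, read 0.35, 0.12, -0.19, -0.02 and -0.07 in the controls and -0.07, -0.08, -0.02 and 0.08 in the aldosterone hearts. Control 1 was the highest heart, the groups overlapped, and the difference of -0.06 (SE 0.10) became 0.02 without control 1. Emcn, a sialomucin of capillary and venous endothelium, had the tightest values of the scanner files. They were 0.89, 1.07, 0.96, 1.13 and 1.02 in the controls and 0.90, 0.98, 0.87 and 0.95 in the aldosterone hearts, a difference of -0.09 (SE 0.06). In the value table Kdr had the smallest SD (0.0772), and Emcn had an SD of 0.19 in the controls and 0.15 in the aldosterone hearts. Icam2, an adhesion ligand for leukocytes, lay between 0.87 and 1.42 over the 9 hearts with a difference of 0.16 (SE 0.12).

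VEGF receptors were lower in the aldosterone hearts for 3 of 3 members by the probe used, with a median of -0.06, none past the test. Only Flt1 kept this sign over the 24 alternatives, while the other probe of Kdr, and Flt4 in the value table, were higher. Flt1, the receptor VEGFR1 that binds VEGF-A, VEGF-B and placental growth factor, read 1.41, 1.73, 1.60, 1.20 and 1.41 in the controls and 1.34, 1.29, 1.37 and 1.32 in the aldosterone hearts. The 4 aldosterone hearts were close together and lay inside the spread of the controls, so the difference of -0.14 (SE 0.10) was smaller than the range of the controls, and it was -0.07 without control 2 and -0.21 without control 4. Kdr, the main signalling receptor VEGFR2, read -1.07, -1.13, -1.15, -0.95 and -1.00 in the controls and -1.04, -1.25, -1.08 and -1.10 in the aldosterone hearts with the used probe, at a difference of -0.06 (SE 0.07) and a 95% interval from -0.20 to 0.09.

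The other Kdr probe gave the opposite sign. It read 0.60, 0.72, 0.88, 0.83 and 0.84 in the controls and 0.99, 1.11, 0.74 and 0.94 in the aldosterone hearts, a difference of 0.17 (SE 0.08, unadjusted p = 0.0653). Ratios to the reference were below 0 with the first probe and above 0 with the second on every array, and the mean of both gave a Kdr difference of 0.06. Neither probe passed, so no direction is given for Kdr. Flt4, the receptor VEGFR3 of VEGF-C that also marks lymphatic vessels, read 0.01, 0.31, 0.04, 0.16 and 0.16 in the controls and 0.11, 0.04, 0.18 and 0.17 in the aldosterone hearts. Its difference was -0.01 (SE 0.07) here and 0.10 (SE 0.11) in the value table, within the spread of the hearts in both.

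**Figure D3:**
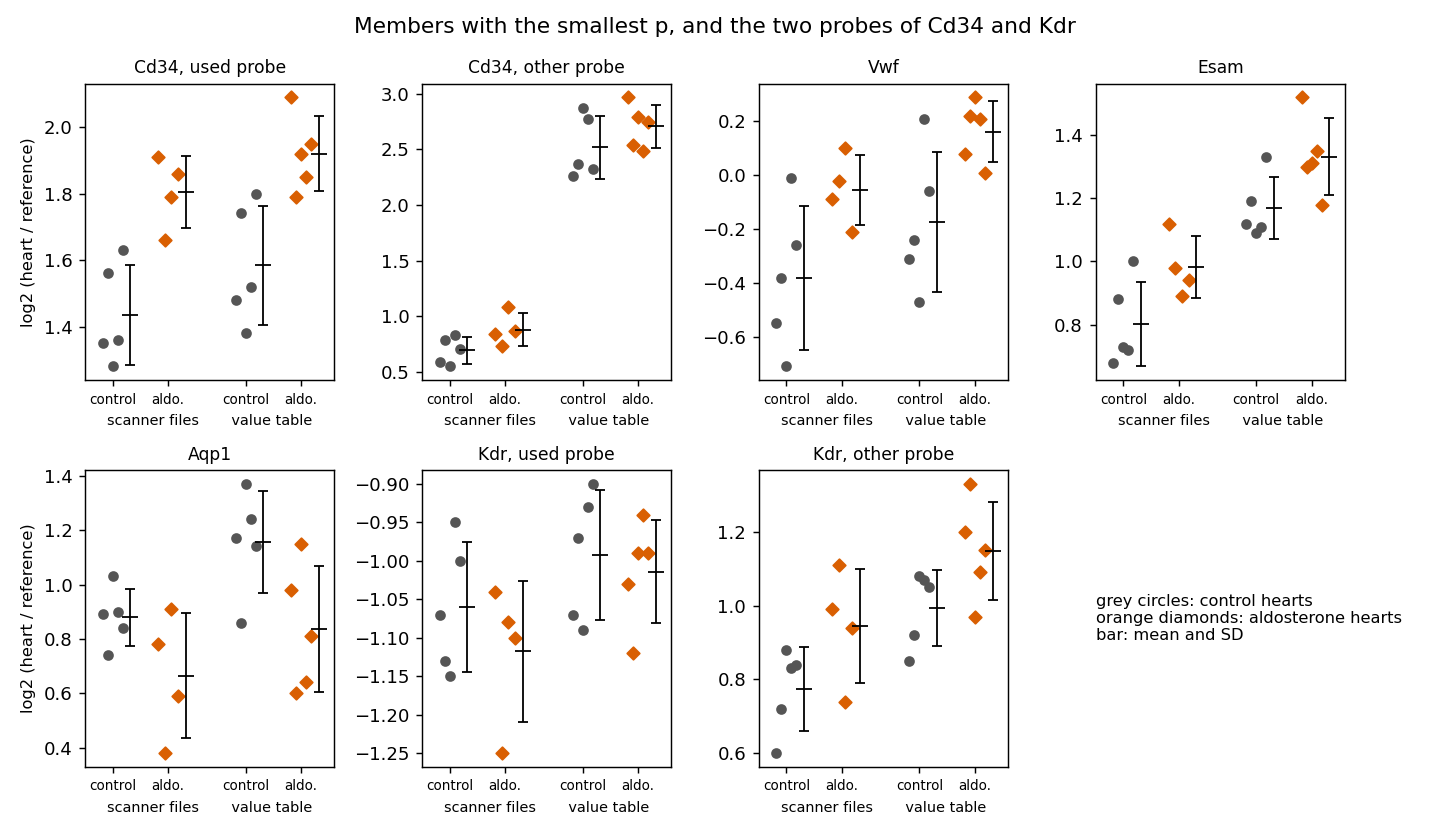
Log2 ratio of heart to reference of Cd34, Vwf, Esam, Aqp1 and Kdr in single hearts, from the scanner files (5 control, 4 aldosterone hearts) and the value table (5 and 5), with both probes of Cd34 and Kdr. Grey circles are control hearts, orange diamonds aldosterone hearts, and bars give mean and SD, with a separate vertical scale in each panel. The Kdr probes differ in sign of the ratio and of the difference, and the groups of the used Cd34 probe are apart in the scanner files and overlap in the table.

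The angiopoietin receptors and their phosphatase had a median of -0.02, with 1 of 3 higher. Tek encodes TIE2, the receptor of the angiopoietins, and read 1.00, 1.11, 0.92, 1.09 and 0.99 in the controls and 1.11, 1.14, 0.91 and 0.86 in the aldosterone hearts. Aldosterone 1 and 2 were high and 3 and 5 low, at the upper and lower edges of the controls, for a difference of -0.02 (SE 0.08). Tie1, an orphan receptor that pairs with TIE2, read 1.23, 1.13, 0.98, 1.25 and 1.46 in the controls and 1.38, 0.98, 1.12 and 1.23 in the aldosterone hearts, a difference of -0.04 (SE 0.10). Ptprb, the vascular phosphatase that acts on TIE2, lay between 0.39 and 1.07 over the hearts, with control 3 lowest, and differed by 0.04 (SE 0.13). Its other probe gave 0.16 (SE 0.11), also with control 3 lowest, at 0.27.

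Of the secreted and vasomotor genes, 2 of 3 were higher, with a median of 0.05. Vwf, the clotting glycoprotein that endothelial cells and megakaryocytes store, read -0.55, -0.38, -0.71, -0.01 and -0.26 in the controls and -0.09, -0.02, 0.10 and -0.21 in the aldosterone hearts. Controls 1 and 3 were the lowest hearts and control 4 lay among the aldosterone hearts. The difference was 0.32 (SE 0.13), a fold of 1.25 with an interval of 1.03 to 1.52, at an unadjusted p of 0.0279 and an adjusted p of 0.74 in limma. It ran from 0.24 without control 3 to 0.42 without control 4, and within slides it was 0.37, 0.69, 0.10 and 0.05.

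In the table Vwf was -0.31, -0.24, -0.47, 0.21 and -0.06 in the 5 controls and 0.08, 0.22, 0.29, 0.21 and 0.01 in the 5 aldosterone hearts, a difference of 0.34 (SE 0.12, adjusted p = 0.51 in limma). Markers of platelets were also higher for 5 of 5 genes, with a median of 0.15. At an unadjusted p under 0.05 there was 1 (beside 6.19% of all genes), and 0 passed the adjusted threshold. Their mean ratio was -2.55 to -2.15 in the controls and -2.17 to -2.02 in the aldosterone hearts, and their part in the Vwf value was not tested. Nos3, the endothelial nitric oxide synthase, read 1.55, 1.43, 1.59, 1.65 and 1.65 in the controls and 1.71, 1.59, 1.67 and 1.53 in the aldosterone hearts. Both of its probes gave a difference of 0.05, with SE 0.07 and 0.06. The 95% interval of the used probe, -0.09 to 0.20, held changes in this ratio of at most 1.14-fold upward. Egfl7, a secreted endothelial matrix protein, lay between 1.67 and 2.22 with a difference of -0.07 (SE 0.12).

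Other receptors and ligands had a median of 0.07, with 3 of 5 higher. Eng encodes endoglin, a co-receptor of TGF-beta family ligands, and read 0.78, 0.67, 0.54, 0.54 and 0.78 in the controls and 0.49, 0.51, 0.72 and 0.65 in the aldosterone hearts, a difference of -0.07 (SE 0.08). Apln, the apelin peptide made by endothelial cells, read 1.21, 0.93, 0.39, 0.94 and 1.01 in the controls and 1.10, 0.99, 1.27 and 0.88 in the aldosterone hearts. Control 3 was the lowest heart by far, and the difference of 0.16 (SE 0.14) was 0.04 without it. Its receptor Aplnr read 0.66, 0.57, 0.94, 0.83 and 0.92 in the controls and 0.90, 0.95, 0.62 and 0.98 in the aldosterone hearts, a difference of 0.08 (SE 0.10) that ran from 0.03 to 0.16 with single hearts left out, so neither the ligand nor the receptor differed by more than the spread between hearts.

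Ednrb, the endothelin B receptor, read -0.24, -0.26, -0.18, -0.37 and -0.18 in the controls and -0.16, -0.35, -0.32 and -0.25 in the aldosterone hearts, and both probes were close to 0 in difference (-0.02 and -0.01). Robo4, an endothelial guidance receptor, lay between 0.63 and 1.09 and differed by 0.07 (SE 0.08), or by 0.01 without control 3.

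Of the transcription factors of endothelial fate, 2 of 4 were higher, with a median of 0.02 and of 0.08 in the value table. Erg, the ETS factor that keeps endothelial genes on, read 0.65, 0.68, 0.42, 0.71 and 0.94 in the controls and 0.92, 0.65, 0.59 and 0.77 in the aldosterone hearts, a difference of 0.05 (SE 0.10), with -0.01 from its other probe. Sox17, an arterial factor, read 0.96, 0.80, 0.62, 0.76 and 1.18 in the controls and 0.96, 0.93, 0.60 and 0.93 in the aldosterone hearts. Here aldosterone 3 was low and the others sat near the middle of the controls, and the difference of -0.01 (SE 0.12) was 0.08 without aldosterone 3. Sox18 acts in vascular and lymphatic development and read 1.30, 1.40, 1.17, 0.79 and 1.30 in the controls and 1.08, 0.96, 1.16 and 1.29 in the aldosterone hearts, a difference of -0.07 (SE 0.12), or -0.17 without control 4. Prox1, the lymphatic master factor that cardiomyocytes also express, read 0.38, 0.57, 0.53, 0.41 and 0.73 in the controls and 0.51, 0.61, 0.55 and 0.67 in the aldosterone hearts, a difference of 0.06 (SE 0.08).

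Genes of capillary metabolism and transport were higher for 5 of 6 members, with a median of 0.06, and the sixth, Aqp1, was the lowest of all 31. Aqp1 encodes a water channel of capillary endothelium and red cells, and read 0.89, 0.74, 1.03, 0.90 and 0.84 in the controls and 0.78, 0.38, 0.91 and 0.59 in the aldosterone hearts. Aldosterone 2 and 5 were below every control and aldosterone 1 and 3 within them. The difference was -0.21 (SE 0.10) at an unadjusted p of 0.0622 and an adjusted p of 0.837 in limma, and it was -0.12 without aldosterone 2. In the table, with aldosterone 4 at 0.64, it was -0.32 (SE 0.13, unadjusted p = 0.031, adjusted p = 0.553 in limma). Erythroid markers stood at 4 of 4 higher with a median of 0.15, from 0.03 (Hba-a1) to 0.83 (Alas2). At an unadjusted p under 0.05 there were 2 (beside 6.19% of all genes), and 0 passed the adjusted threshold. Their mean ratio was -3.15 to -2.45 in the controls and -2.59 to -2.21 in the aldosterone hearts. The part of this list in the Aqp1 value was not tested.

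Fabp4, the fatty acid binding protein of capillary endothelium and fat cells, read 2.95, 3.22, 2.90, 3.20 and 3.23 in the controls and 3.14, 3.62, 3.21 and 3.09 in the aldosterone hearts. In the scanner files the difference was 0.16 (SE 0.12), and 0.05 without aldosterone 2, the highest heart. In the table aldosterone 2 read 3.66 and aldosterone 4 read 3.62, both above the highest control at 3.42. The other aldosterone hearts there lay within the range of the controls. Adipocyte markers were lower for 6 of 6 genes, with a median of -0.12 in the scanner files and -0.81 in the table, where the Fabp4 difference was 0.19. At an unadjusted p under 0.05 in limma there was 1 in the scanner files (beside 6.19% of all genes) and 3 in the table (beside 8.09%). In both, 0 passed the adjusted threshold. Adipoq, Plin1, Lep and Cidec of that list were not well above background on every array. The mean ratio of all 6 adipocyte markers was -1.20 to -0.78 in the controls and -1.45 to -1.10 in the aldosterone hearts, and the part of this list in the Fabp4 value was not tested. Gpihbp1, which carries lipoprotein lipase to the capillary lumen, read 1.89, 2.24, 2.03, 2.17 and 2.20 in the controls and 2.23, 2.19, 2.13 and 1.93 in the aldosterone hearts, a difference of 0.02 (SE 0.09).

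Cav1, the coat protein of caveolae, read 1.17, 1.06, 0.66, 1.23 and 1.19 in the controls and 1.26, 0.95, 1.08 and 0.97 in the aldosterone hearts and differed by 0.00 (SE 0.12), with control 3 lowest. Plvap, the diaphragm protein of fenestrae and caveolae, read -2.51, -2.59, -2.27, -2.32 and -2.43 in the controls and -2.43, -2.45, -2.21 and -2.17 in the aldosterone hearts. Its difference was 0.11 (SE 0.09) with this probe and -0.03 with the other. Rgcc, a cell cycle regulator found in cardiac capillaries, had the widest spread of the 31 in the scanner files. In the value table this was Cav1. Rgcc read 0.67, 1.31, 1.19, 1.01 and 1.15 in the controls and 0.86, 1.56, 1.30 and 1.26 in the aldosterone hearts, a difference of 0.18 (SE 0.15). That value was 0.08 without control 1 or without aldosterone 2, and 0.31 without aldosterone 1. In the fit without aldosterone 1 its unadjusted p was 0.0474 and its adjusted p 0.915 in limma. There 1194 of 22016 genes had an unadjusted p under 0.05.

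Single hearts stood out over many members. Control 3 held the lowest of the 9 values for 10 members (32.3%), beside 21% of all genes, and in the value table, over 10 hearts, it did so for 10 again, beside 15.8%. Control 1 held the lowest for 7 (22.6%, beside 10.6%) and control 5 for 0 of 31 (beside 9.61%). Aldosterone 1 held the highest for 8 (25.8%, beside 16.5%). Counted against each gene's own mean, 7 of 31 members were above it in control 3 and 26 in control 5, so the lowest and the highest heart by this count were both controls. By the median deviation of the members from their own means, control 3 was again lowest (-0.12), and aldosterone 1 was highest (0.10), ahead of control 5 (0.08). Neither the count against the mean nor this median was taken over all genes, so neither is particular to the members by these values. Over all 5 controls, the lowest value fell in a control for 23 members (74.2%), beside 61.4% of all genes, and the highest for 14 (45.2%), beside 56.3%. Members share hearts and arrays, and these counts are a description.

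**Figure D4:**
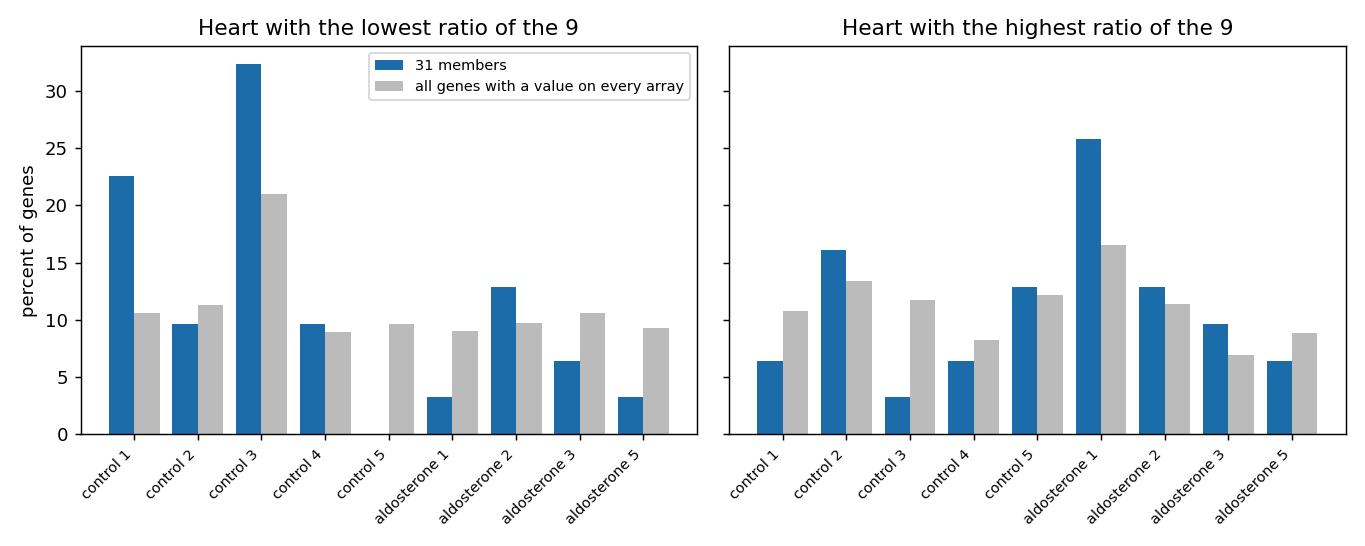
Percent of the 31 members (blue) and of all genes with a value on every array (grey) for which a heart had the lowest (left) or highest (right) ratio of the 9. Control 3 was lowest for 32.3% of members and 21% of all genes, and aldosterone 1 highest for 25.8% and 16.5%.

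Ligands and partners of these receptors were read from a list of 29 genes, 26 of which were tested. Of these 17 were higher and 9 lower, with a median of 0.02, 5 at an unadjusted p under 0.05 (beside 6.19% of all genes) and 0 past the adjusted threshold. Angpt2, the angiopoietin that destabilises vessels, was lower by value, -0.37 (SE 0.10, adjusted p = 0.424 in limma) and -0.52 (SE 0.13) in the table. Vegfa, the main ligand of KDR, differed by 0.09 (SE 0.08). Vegfb was at -0.05 (SE 0.09), Vegfc, the ligand of FLT4, at 0.19 (SE 0.12) and Pgf, the placental growth factor, at -0.13 (SE 0.09). Angpt1, the ligand that activates TIE2, was at 0.10 with the wide SE of 0.37. The co-receptor Nrp1 was at 0.00 (SE 0.13), the Notch receptor Notch1 at 0.05 (SE 0.16) and its tip cell ligand Dll4 at 0.01 (SE 0.09).

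Regulators of endothelial genes outside the members were 20 genes, of which 19 were tested, 12 higher, with a median of 0.02 and 0 called. The flow-responsive factors Klf2 and Klf4 differed by 0.07 (SE 0.11) and 0.02 (SE 0.14), and the sphingosine receptor S1pr1 by -0.04 (SE 0.07). Lists of neighbouring cell types held endocardium at 4 of 4 higher (median 0.13), lymphatic endothelium at 4 of 5 (0.13), mural cells at 5 of 10 (0.00), cardiomyocytes at 4 of 9 (-0.04) and macrophages at 5 of 6 (0.10), and 0 genes of these lists passed the test. In the value table they stood, in this order, at 3 of 4 (0.16), 5 of 5 (0.16), 7 of 10 (0.03), 5 of 9 (0.06) and 6 of 6 (0.25), again with 0 past the test. Over all genes 52.3% were higher in the scanner files and 49.9% in the table. Plvap is shared with the endocardium list and Prox1 and Flt4 with the lymphatic list.

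**Figure D5:**
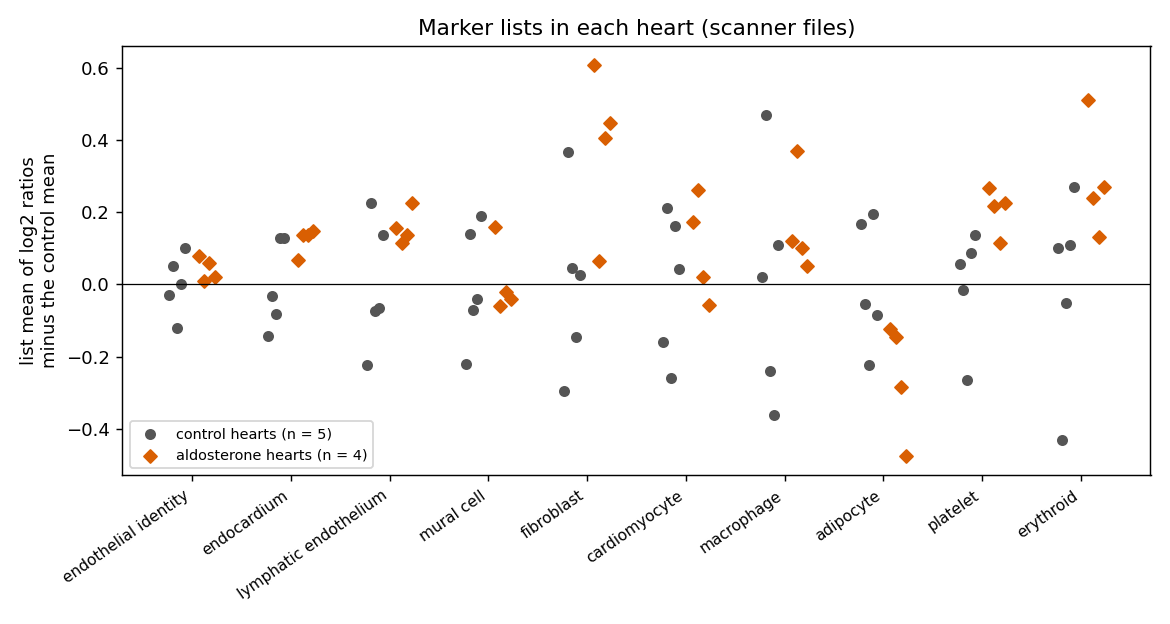
Mean log2 ratio of the genes of each marker list in each heart, less the mean of the 5 controls, from the scanner files. Grey circles are control hearts and orange diamonds aldosterone hearts. The endothelial list stays within 0.69 to 0.91 in the controls and 0.82 to 0.89 in the aldosterone hearts before centring, while the fibroblast list runs from 0.33 to 0.99 and from 0.69 to 1.23.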

How the data were processed

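Ventricle RNA in Cy5 and a tissue pool in Cy3 shared each array, per the labels. The authors' deposited scanner files hold intensity values from Agilent's scanner software (version 10.7.3.1 per the submitters' processing notes) and a log10 ratio of Cy5 over Cy3. Their deposited value table holds log2 ratios, for the 9 arrays at hand the scanner's ratio with Pearson correlations of 0.996 to 1 over probes, a slope of 1, and 82.7% to 86.6% of probes within 0.001. Its column medians were -0.01 to 0.12, so scale and direction are known and no centring was seen.

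Median signals were corrected with normexp (offset 50). Before that, a local background over 20 units away from its array's median was set to this median, since control 1 held one of 11739.5 units. Log2 ratios were loess-normalized in limma 3.58.1 under R 4.3.3, giving control spots no weight. After that, 1667 outlier spots were left out. Accessions named 26581 of 39429 probes through RefSeq (GRCm38.p6), for names only. Probes well above background in Cy5 on at least 4 arrays were kept (26877), and the probe of highest mean Cy5 signal stood for each gene, chosen without regard to group (22016 genes, 15230 with a symbol). The test was limma's two-sided moderated test on 5 control and 4 aldosterone arrays, its p-values adjusted by Benjamini-Hochberg across the 22016 genes and read at 0.05. Each sample is labelled as its own mouse.

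On simulated data with 200 of 21978 genes changed, limma's fit found 67.5% of them at a log2 change of 0.5, 95.5% at 1 and 99.5% at 2. The simulated noise was independent between genes, and the change was added to ratios already normalized. The simulation drew on the spread of all genes, whose median SD was 0.118, beside 0.154 for the members. These shares are therefore not detection rates for the members. Slide and scan are 1 batch, and slide 1 held controls 1 and 2 and aldosterone 1. The members, the lists and the setting for stray backgrounds were chosen with earlier results of these data known. All 31 members are named. Per-heart values are given for a list of 26 and the 6 members of smallest p, 12 partner and regulator genes were set to be named, and a few more are named under the other observations after their values were seen. Same-numbered hearts deviated together with r = 0.06, 0.34, 0.35 and -0.34, so the numbers were not taken as pairs.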

Additional observations from a re-analysis of the deposited data

Results flagged for a closer look

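Within the 62 groups of member values examined, 2 held a heart far from the others by Dixon's criterion, which chance meets in about 1 in 20 groups. Ptprb, the phosphatase of TIE2, stood at 0.39 in control 3, where the other 4 controls lay between 0.85 and 1.02. Sox17 stood at 0.60 in aldosterone 3, where the other 3 aldosterone hearts lay between 0.93 and 0.96.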

How the results depend on the processing

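No member passed the adjusted threshold in limma under any of 24 alternatives (9 leaving out a heart, 15 others), and 16 of 31 members kept the sign of their difference in all 24. The number of members higher ran from 14 to 21 (22 of 39 when probes were tested singly) and their median from -0.01 to 0.07. Over all genes the count of calls was 0 and rose to 7 with Agilent processed signals, 2 with the replicate block, 37 in the value table of 10 hearts, 13 in that of the 9 hearts and 35 when every probe of the table was tested (chosen after seeing the data); with one heart left out it ran from 0 to 11. The cause was not tested. With the replicate block 0 members were called and 18 were higher, with a median of 0.04. Control 4 is alone in its block, since aldosterone 4 has no scanner file. The differences are therefore the same as in the fit without control 4, and only their SEs differ. Aquantile leaves the ratios as they were by its construction.

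The sign turned for 15 members, all with small differences, and the cause was not tested. With stray backgrounds kept, Tek was 0.09, Tie1 0.01, Sox17 0.04 and Plvap -0.0037. Without background correction Tek was 0.03, Cav1 -0.03, Flt4 0.05 and Ednrb 0.0043. Agilent processed signals gave Pecam1 -0.0043, Sox17 0.07, Flt4 0.12 and Ednrb 0.04. Median centring gave Tek 0.03 and Cav1 -0.02, and Cy5 alone gave Tek 0.12, Cav1 -0.06, Prox1 -0.04 and Ednrb 0.0042. The mean of the probes gave Kdr 0.06, and the slide block Sox17 0.002. The table of 10 hearts gave Sox17 0.08, Flt4 0.10 and Ednrb 0.01, and that of 9 hearts Pecam1 -0.02, Cav1 -0.0041, Gpihbp1 -0.0019, Sox17 0.08, Flt4 0.09 and Ednrb 0.02. Leaving out single hearts moved Cldn5 from -0.12 to 0.02, Gpihbp1 from -0.04 to 0.08, Sox17 from -0.07 to 0.08, Tek from -0.06 to 0.03, Flt4 from -0.04 to 0.03, Erg from -0.01 to 0.12, Ptprb from -0.07 to 0.10, Cav1 from -0.10 to 0.04, Tie1 from -0.10 to 0.03, Egfl7 from -0.18 to 0.0041 and Ednrb from -0.06 to 0.0027. The number of arrays limits the precision of every difference. All member probes were well above background, but this flag does not show how far the handling of backgrounds moves a ratio. Neither was tested as a cause of the turned signs.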

Other observations

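Among the 26 partner genes tested, 3 had groups that did not overlap, beside 2.1% of all genes, and they are named here after their values were seen. Nrp2, a co-receptor of VEGF and semaphorins, was at 0.66 in the controls and 1.00 in the aldosterone hearts on average, a difference of 0.35 (SE 0.10, adjusted p = 0.488 in limma). Plxnd1, a semaphorin receptor of endothelium, differed by 0.24 (SE 0.07, adjusted p = 0.449 in limma), and Slit2, a guidance ligand, by 0.17 (SE 0.06, adjusted p = 0.694 in limma). In the value table these differences were 0.35 (SE 0.09) for Nrp2, 0.22 (SE 0.07) for Plxnd1 and 0.42 (SE 0.11) for Slit2. On the lymphatic list Pdpn, podoplanin, which fibroblasts also express, differed by 0.45 (SE 0.09, adjusted p = 0.2 in limma), again with no overlap and named after its values were seen. None of the 4 passed the test.

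The second Erg probe read 0.23 to 0.52 over the 9 scanner arrays and 1.57 to 3.19 over the 10 hearts of the value table, where its difference was 0.32 (SE 0.33).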
